A study of Mus musculus with 28 samples.

Results

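The tumor necrosis factor (TNF) ligands and receptors were followed in tissue grown into an implant under the skin of mice with and without a mammary tumor. The members were all assays whose symbol begins with Tnfsf or Tnfrsf, together with Tnf, Cd40, Cd40lg and Fasl. This rule took 26 of the 648 assays on the panel, for 25 of its 584 genes. They comprised 14 ligand genes and 11 receptor genes, with 2 assays for Tnfrsf1a. The 10 ligands Tnf, Cd40lg, Tnfsf4, Tnfsf8, Tnfsf9, Tnfsf10, Tnfsf11, Tnfsf14, Tnfsf15 and Tnfsf18 had a receptor among the members, in 11 ligand and receptor pairs.

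The 28 samples were microporous polycaprolactone scaffolds, a biodegradable polyester, recovered from 28 female BALB/c mice, 1 sample per mouse. In all mice the scaffold lay under the skin and filled with host cells. The tumor-bearing mice had received 4T1 cells, a mouse mammary carcinoma line, in the 4T1-luc2-tdTomato form that carries a luciferase and a red fluorescent protein. The healthy mice were the time-matched controls, although the labels list the cell line for them as well. Scaffolds were taken at day 7 (3 healthy and 3 tumor-bearing mice), day 14 (8 and 8) and day 21 (3 and 3) after inoculation. The groups ask whether, and when, the implant's transcripts differ in a mouse that carries a tumor. No genotype or allele other than the strain is labelled, and no age is given in the labels used here. Mice are numbered 1 to 28, as in the labels.

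Ligands of this family are made mostly as membrane proteins that assemble as trimers and can be shed. Their receptors either carry a death domain, as Tnfrsf1a and Tnfrsf25 do, or recruit TRAF adaptors, and most of them feed the NF-kappaB pathway. In inflamed tissue Tnf comes largely from macrophages, while Tnfrsf4, Tnfrsf9 and Tnfrsf18 are costimulatory receptors of activated and regulatory T cells. Tnfsf13 and Tnfsf13b support B cells, and Tnfsf11 with its soluble decoy receptor Tnfrsf11b sets osteoclast formation.

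Levels are given as the log2 relative quantity, which is the mean quantification cycle (Cq) of 5 reference genes minus the Cq of the assay. A reaction that starts with more template reaches the detection level in fewer PCR cycles and has the lower Cq. A step of 1 on the log2 scale is a doubling. Between 475 and 587 assays gave a Cq in a sample, and the mean reference Cq lay between 18.1 and 19.3. Of 728 member reactions 697 gave a Cq. The share without one was 4.26%, against 12.4% over the whole panel, and 13 member assays were measured in every mouse. Of the 31 member reactions without a Cq, 13 lay on the physical panel called E here, which held 4 samples. The RNA integrity numbers in the labels were between 8.2 and 9.7. Cells and matrix of an implant were represented, with median Cq values of 14.7 for Fn1 (fibronectin), 17.5 for Mrc1 and 17.9 for Itgam (macrophage and myeloid markers).

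The most abundant signals of the family were receptors for Tnf itself and the ligand Tnfsf12. Tnfrsf1b, the TNF receptor restricted mainly to immune and endothelial cells, had a median log2 relative quantity of 0.31 over all mice, at a median Cq of 18.3. Tnfsf12, a ligand known as TWEAK, lay at 0.02, and the 2 assays of Tnfrsf1a, the widely expressed death-domain receptor of Tnf, lay at -0.18 and -0.68. Tnfsf13 lay at -2.04, Tnfrsf14 (a receptor of Tnfsf14) at -2.20 and Tnf at -3.36. The order between assays is approximate, because assays may amplify with different efficiency. In bulk tissue, fewer cells of a type and less RNA per cell cannot be told apart.

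Further down the order of levels, the median log2 relative quantity was -4.66 for Tnfrsf9, -5.38 for Tnfsf8, -5.74 for Tnfsf9 and -6.21 for Tnfrsf4. Fasl, the ligand that triggers death through Fas, Tnfsf18 and its receptor Tnfrsf18 lay close together at -7.20, -7.25 and -7.34. The least abundant were Tnfrsf25 at -10.09, Tnfrsf19 at -10.92, Cd40lg at -11.19 and Tnfrsf8 at -18.04. Tnfrsf8 crossed its threshold only between cycles 32.9 and 39.7, and its 24 values rest on very little template.

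**Figure D1:**
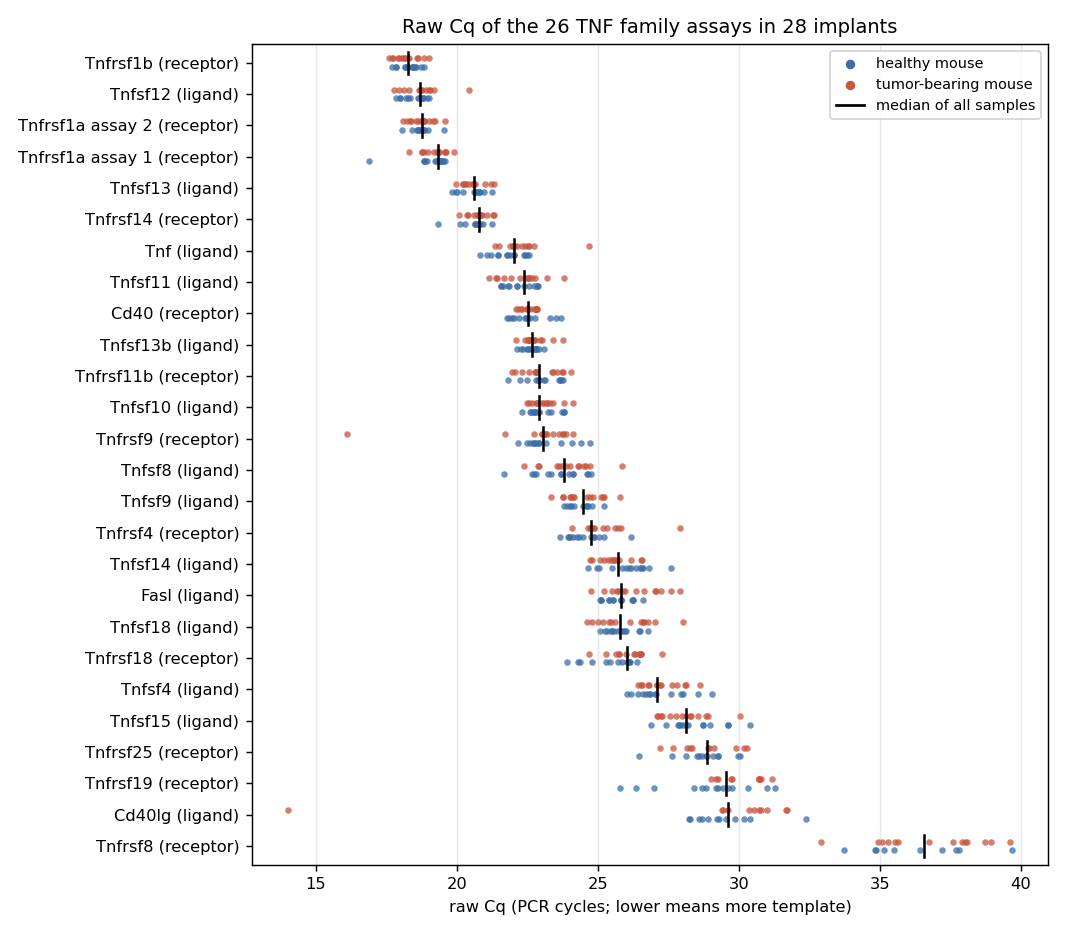
Raw Cq (cycles, horizontal axis) of each member assay in each of the 28 implants, blue for healthy and red for tumor-bearing mice, with the median of all samples as a black bar. Assays run from Tnfrsf1b at a median of 18.3 to Tnfrsf8 at 36.6, and single early points stand apart for Cd40lg at 14.0 and Tnfrsf9 at 16.1.

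Precision differed widely between members. The pooled SD within a group was 0.18 for Tnfrsf1b, 0.20 for the second Tnfrsf1a assay, 0.22 for Tnfsf13b and 0.25 for Tnfsf13. It reached 1.38 for Tnfrsf19, 1.69 for Tnfrsf8 and 3.29 for Cd40lg. The Cd40lg value includes a far-out reaction of mouse 26, a tumor-bearing mouse of day 21. The Cd40lg SD was 9.06 in that group and 0.36 to 1.70 in the other groups with more than 1 value. The median over the members was 0.59, against 0.47 over all assays.

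Cd40lg and Tnfrsf9 each had 1 reaction far from the rest of its group, both in tumor-bearing mouse 26 at day 21. Cd40lg encodes the T-cell ligand of Cd40, which licenses B cells and dendritic cells. Its raw Cq was 14.0 in that mouse, which is -15.4 cycles from its group median of 29.4. On the log2 scale the mouse had 4.42, while tumor-bearing mice 27 and 28 had -11.90 and -10.55 and the 3 healthy mice had -11.19, -10.50 and -10.06. Mouse 26 was thus the only one of the 23 mice with a Cd40lg value to lie above -9.40.

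Tnfrsf9 encodes a costimulatory receptor of activated T cells. Its raw Cq in mouse 26 was 16.1, against a group median of 23.2. The log2 relative quantities were 2.31 in mouse 26, -4.72 and -4.75 in the other tumor-bearing mice, and -4.65, -4.61 and -4.57 in the healthy mice. Apart from mouse 26 all of these values lay between -4.75 and -4.57. Cd40, the receptor of Cd40lg, and Tnfsf9, the ligand of Tnfrsf9, did not stand apart in mouse 26, at -4.04 and -6.66.

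These were the only 2 member reactions over 4 cycles away from the median of their group, 0.287% of the member reactions with a Cq, against 0.314% over the panel. Over the panel 50 reactions were this far out, 31 of them early. Mouse 26 had 11, of which 9 were early, and healthy mice 13 and 14 of day 14 had 9 each. Mouse 26 and mouse 13 were run on panel E and mouse 14 on panel F.

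Both reactions set the fold changes of their assays at day 21. The authors' deposited table lists Cd40lg at 23.8-fold and Tnfrsf9 at 4.67-fold in tumor-bearing over healthy mice at day 21. In the model fitted here (limma over all assays, described with the tumor comparison) the differences were 4.57 ± 2.48 (SE) for Cd40lg, with an adjusted p of 0.677, and 2.22 ± 1.03 for Tnfrsf9, with an adjusted p of 0.526. With the reactions over 4 cycles out removed they were -0.63 for Cd40lg (limma adjusted p 0.974) and -0.13 for Tnfrsf9 (limma adjusted p 0.995). The mean of the tumor-bearing mice at day 21 moved from -6.01 (n = 3) to -11.22 (n = 2) for Cd40lg and from -2.39 to -4.73 for Tnfrsf9.

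**Figure D2:**
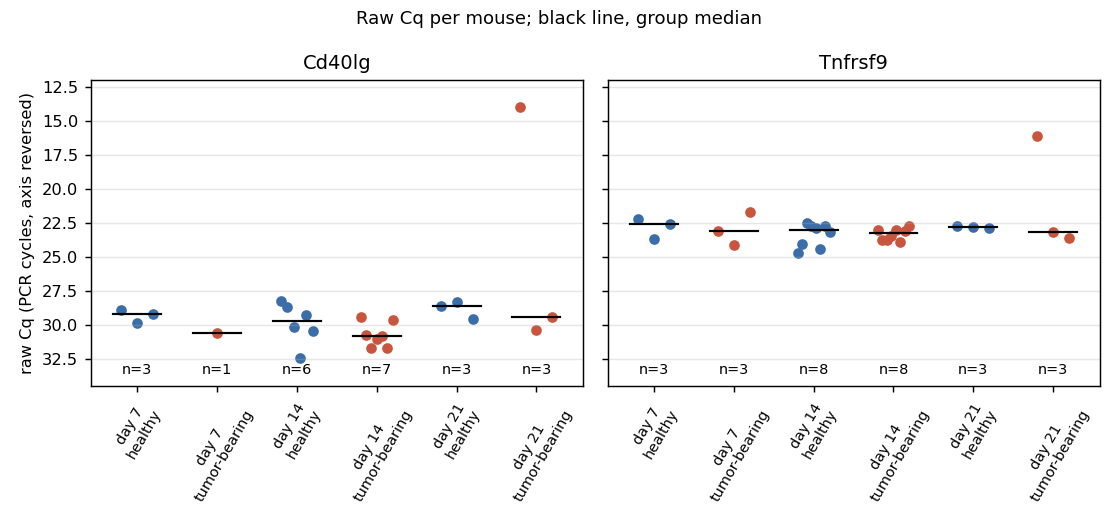
Raw Cq (cycles, reversed so that more template is higher) of Cd40lg and Tnfrsf9 in each mouse, by day and condition, with the group median as a black line and the number of mice with a Cq below. Tumor-bearing mouse 26 of day 21 lies alone at 14.0 for Cd40lg and 16.1 for Tnfrsf9.

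The comparison of tumor-bearing with healthy mice found no member past the threshold on any day. The test was limma on the log2 values of all assays, with the panel as a random block, and a call needed an adjusted p (Benjamini-Hochberg over all assays tested) under 0.05. At day 14 all mice of panel D were healthy and all mice of panel G tumor-bearing. For the mice of these panels, condition and panel cannot be told apart. At day 7, 0 of 25 members were called, against 0.0% of 565 assays, and 0 of 25 had an unadjusted p under 0.05, against 2.3%. At day 14, 0 of 26 were called, against 2.38% of 588 assays, and 3 of 26 had an unadjusted p under 0.05, against 10.5%. At day 21, 0 of 26 were called, against 1.22% of 573 assays, and 2 of 26 had an unadjusted p under 0.05, against 9.08%. Over the mean of the 3 days 0 of 25 were called, against 2.5% of 559, and 1 of 25 had an unadjusted p under 0.05, against 8.77%.

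Other genes of the panel did differ between these mice at days 14 and 21. Of the markers of neutrophils, 0 of 9 tested assays rose in tumor-bearing mice at day 7, 9 of 9 at day 14 and 5 of 10 at day 21. Cd40lg was not tested at day 7 or over the mean of the days, because only 1 tumor-bearing mouse had a Cq at day 7. For days 7, 14 and 21 the median member difference was -0.12, -0.12 and -0.06, against 0.03, -0.08 and 0.00 over all assays. Ligands and receptors did not separate, with medians at day 14 of -0.14 over 14 ligand assays and -0.12 over 12 receptor assays.

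How small a difference the data allow depended on the member. The 95% interval of the difference lay inside a 2-fold change, up or down, for 9 of 25 members at day 7, 12 of 26 at day 14 and 9 of 26 at day 21. It did so for 18 of 25 over the mean of the days. The tightest intervals over the mean of the days were -0.06 to 0.29 for Tnfrsf1b and -0.17 to 0.20 for the second Tnfrsf1a assay. Those of the B-cell ligands were slightly wider, at -0.29 to 0.12 for Tnfsf13b and -0.17 to 0.30 for Tnfsf13. The first Tnfrsf1a assay was less precise than these, with a pooled SD within a group of 0.52. Its SD was 0.89 in healthy mice of day 14, which include the far-out mouse 14, and 0.06 to 0.22 in the other groups. For Fasl, Tnfrsf4, Tnfrsf8, Tnfrsf9, Tnfrsf18, Tnfrsf19 and Tnfrsf25 the interval over the mean of the days reached beyond a 2-fold change. For these a missed threshold does not show that the conditions are alike, and the Tnfrsf9 interval includes the early reaction of mouse 26. Tnf, Tnfsf4, Tnfsf8, Tnfsf12 and Tnfsf15 lay inside over the mean but on no single day, so the same limit holds for them by day. The estimates of Tnfsf4, Tnfsf12 and Tnfsf15 changed sign between days.

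**Figure D3:**
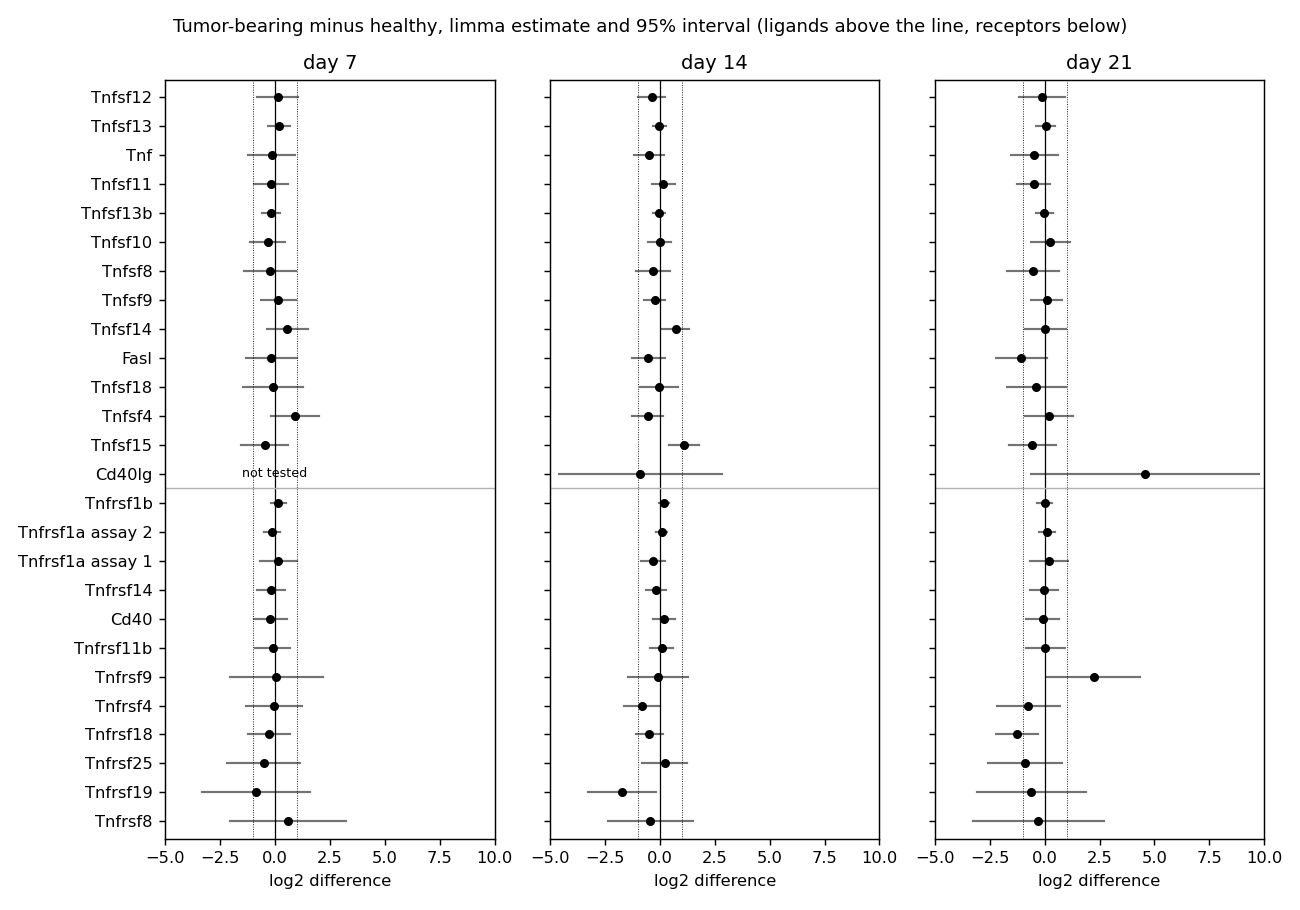
Difference of tumor-bearing minus healthy mice (log2, horizontal axis) for each member assay on each day, as limma estimate and 95% interval, with dotted lines at a 2-fold change. No member passed the adjusted threshold, and the Cd40lg and Tnfrsf9 estimates of day 21 (4.57 and 2.22) rest on mouse 26.

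Tnf was measured in every mouse, at a Cq between 20.8 and 24.7. At day 7 its log2 relative quantity was -3.54, -3.21 and -2.66 in healthy mice and -3.63, -3.16 and -3.07 in tumor-bearing mice. At day 14 healthy mice ranged from -4.13 through a median of -3.50 to -2.89, and tumor-bearing mice from -6.50 through -3.69 to -3.09. At day 21 the values were -2.98, -2.73 and -2.72 in healthy mice and -3.53, -3.23 and -3.06 in tumor-bearing mice. The conditions overlapped at days 7 and 14, and at day 21 every tumor-bearing mouse lay below every healthy mouse.

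The estimated Tnf differences were -0.15 ± 0.52, -0.50 ± 0.34 and -0.47 ± 0.52 at days 7, 14 and 21, and -0.37 ± 0.27 over the mean of the days (limma adjusted p 0.997, 0.648, 0.923 and 0.709). Panels A, B, C, E and F carried both conditions and give 10 day-matched pairs. Tnf was lower in the tumor-bearing mouse in 8 of these 10 panel-matched pairs. The lowest value, -6.50, was tumor-bearing mouse 15 of day 14. Without that mouse the day 14 difference was -0.19 (limma adjusted p 0.751), and without panels D and G it was -0.12 (limma adjusted p 0.885).

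Tnfsf15 had the smallest p of any member at day 14. Its product, TL1A, acts on the death-domain receptor encoded by Tnfrsf25. At day 14 healthy mice ranged from -11.55 through a median of -10.14 to -9.43, and tumor-bearing mice from -9.89 through -9.13 to -8.68. The ranges overlapped between -9.89 and -9.43. The difference was 1.10 ± 0.33, or 2.14-fold, with an unadjusted p of 0.00271 and an adjusted p of 0.084 by limma.

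All 4 panel-matched pairs of day 14 had more Tnfsf15 in the tumor-bearing mouse, by 0.64 to 1.72. In the samples of mixed panels alone, leaving out panels D and G that each held 1 condition, the difference was 0.96 ± 0.43 (limma adjusted p 0.426). At day 7 the values were -9.94, -9.32 and -8.94 in healthy and -11.12, -9.46 and -9.03 in tumor-bearing mice. At day 21 they were -10.10, -9.49 and -8.68 in healthy and -10.08, -10.03 and -9.83 in tumor-bearing mice. On those days the conditions overlapped and the estimates had the other sign, -0.47 ± 0.51 and -0.56 ± 0.51. The day 14 difference exceeded that of day 7 by 1.57 ± 0.61 and that of day 21 by 1.66 ± 0.61, with limma adjusted p of 0.824 and 0.645, so the change between days was not past the threshold. Its receptor Tnfrsf25 differed by 0.22 ± 0.49 at day 14.

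Tnfsf14, known as LIGHT, is a ligand of Tnfrsf14 and of the lymphotoxin beta receptor. At day 7 it was -7.55, -7.53 and -6.94 in healthy mice and -7.22, -6.76 and -6.37 in tumor-bearing mice. At day 14 healthy mice ranged from -8.85 through -7.97 to -7.03 and tumor-bearing mice from -8.34 through -7.14 to -6.06. At day 21 the healthy mice had -6.74, -6.69 and -6.57 and the tumor-bearing mice -6.89, -6.67 and -6.36. The conditions overlapped on every day.

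For Tnfsf14 the estimates for days 7, 14 and 21 were 0.56 ± 0.45, 0.72 ± 0.29 and 0.03 ± 0.45 (limma adjusted p 0.997, 0.297 and 0.995). The tumor-bearing mouse was higher in 7 of 10 panel-matched pairs. Tnfrsf14, its receptor, differed by -0.17 ± 0.21 at day 14.

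Tnfrsf18 (GITR), a receptor of regulatory and activated T cells, had the smallest p at day 21 and over the mean of the days. Its values at day 21 were -6.45, -6.29 and -6.06 in healthy mice and -8.38, -8.01 and -6.26 in tumor-bearing mice. Tumor-bearing mice 28 and 27 lay below all healthy mice, and mouse 26 lay among them. At day 7 the healthy mice had -7.56, -6.96 and -6.94 and the tumor-bearing mice -7.60, -7.45 and -7.23. At day 14 healthy mice ranged from -7.89 through -7.27 to -5.46 and tumor-bearing mice from -8.13 through -7.55 to -7.10. The conditions overlapped on all 3 days.

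Tnfrsf18 was estimated at -0.27 ± 0.47, -0.48 ± 0.30 and -1.28 ± 0.47 for days 7, 14 and 21, with -0.68 ± 0.24 for their mean. By limma the adjusted p was 0.997, 0.615, 0.301 and 0.249. It was lower in the tumor-bearing mouse in 8 of 10 panel-matched pairs. No call was made with all mice, and the side of the threshold depended on mouse 26, the mouse with the early Cd40lg and Tnfrsf9 reactions. Its Tnfrsf18 reaction was not over 4 cycles from the group median. Without mouse 26, the difference was -1.90 at day 21 (limma adjusted p 0.031) and -0.88 over the mean of the days (limma adjusted p 0.0265). Without the 4 samples of panel E it was -1.94 at day 21 (limma adjusted p 0.0154) and -0.80 over the mean (limma adjusted p 0.0162). Over all refits with changed settings or samples, the day 21 difference lay between -1.94 and -0.87 (limma adjusted p 0.0154 to 0.629). Over the mean of the days it lay between -0.88 and -0.54 (limma adjusted p 0.0162 to 0.551).

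Tnfrsf4 (OX40), which lies next to Tnfrsf18 in the RefSeq annotation of GRCm38.p6, is also a costimulatory receptor of T cells. At day 21 healthy mice had -5.76, -5.67 and -5.56, and 2 tumor-bearing mice had -6.71 and -5.96, with no Cq in mouse 26. The measured mice did not overlap. The difference was -0.74 ± 0.69 at day 21 and -0.81 ± 0.40 at day 14 (limma adjusted p 0.92 and 0.5). In the day 14 samples of panel E, healthy mouse 13 at -7.75 and tumor-bearing mouse 21 at -9.26 were the lowest of their groups.

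For Fasl the measured mice of day 21 did not overlap. The healthy mice had -7.04, -7.04 and -6.88 and the tumor-bearing mice -9.03, -7.88 and -7.27. At day 14 the highest healthy mouse was at -6.64, the median at -7.05 and the lowest, mouse 11, at -7.996, while tumor-bearing mice ran from -9.40 through -7.64 to -6.38. At day 7 the values were -8.14, -7.04 and -6.53 against -7.80, -7.39 and -7.02, and the conditions overlapped on both of these days.

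The Fasl difference was -0.16 ± 0.56, -0.52 ± 0.36 and -1.07 ± 0.56 at days 7, 14 and 21, and -0.58 ± 0.29 over the mean of the days, where the limma adjusted p was 0.552. Without tumor-bearing mouse 28 the day 21 difference was -0.61 (limma adjusted p 0.94). It was lower in the tumor-bearing mouse in 8 of 10 panel-matched pairs. Fas, its receptor, stood outside the membership rule and differed by -0.01 ± 0.12 over the mean of the days.

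Estimates for T-cell markers were below 0 as well, and their part in these values was not tested. Of 21 listed T-cell markers 5 had an assay (Cd4, Cd28, Ctla4, Foxp3 and Icos), all with a Cq in at least 26 mice, and on each day 5 of 5 estimates were below 0 while 0 of 5 were called. Over the mean of the days Icos differed by -0.84 ± 0.30 and Ctla4 by -0.89 ± 0.37 (limma adjusted p 0.249 and 0.401). The summed relative quantity of the 5 markers at day 14 lay between 0.0304 and 0.0749 in healthy mice and 0.0297 and 0.054 in tumor-bearing mice, in the 7 mice of each group with all markers measured. At day 21 it lay between 0.0848 and 0.0887 in the 3 healthy mice and was 0.0437 in the 1 tumor-bearing mouse with all markers. Cd4 at day 21 was -5.675 and -4.178 in the 2 tumor-bearing mice with a Cq, and -4.232 to -4.087 in healthy mice. The tumor-bearing mouse within the healthy range for Cd4 lacked another marker and is not in the sum. At day 7 the sum lay between 0.0471 and 0.0519 in the healthy mice and between 0.0261 and 0.0444 in the others.

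**Figure D4:**
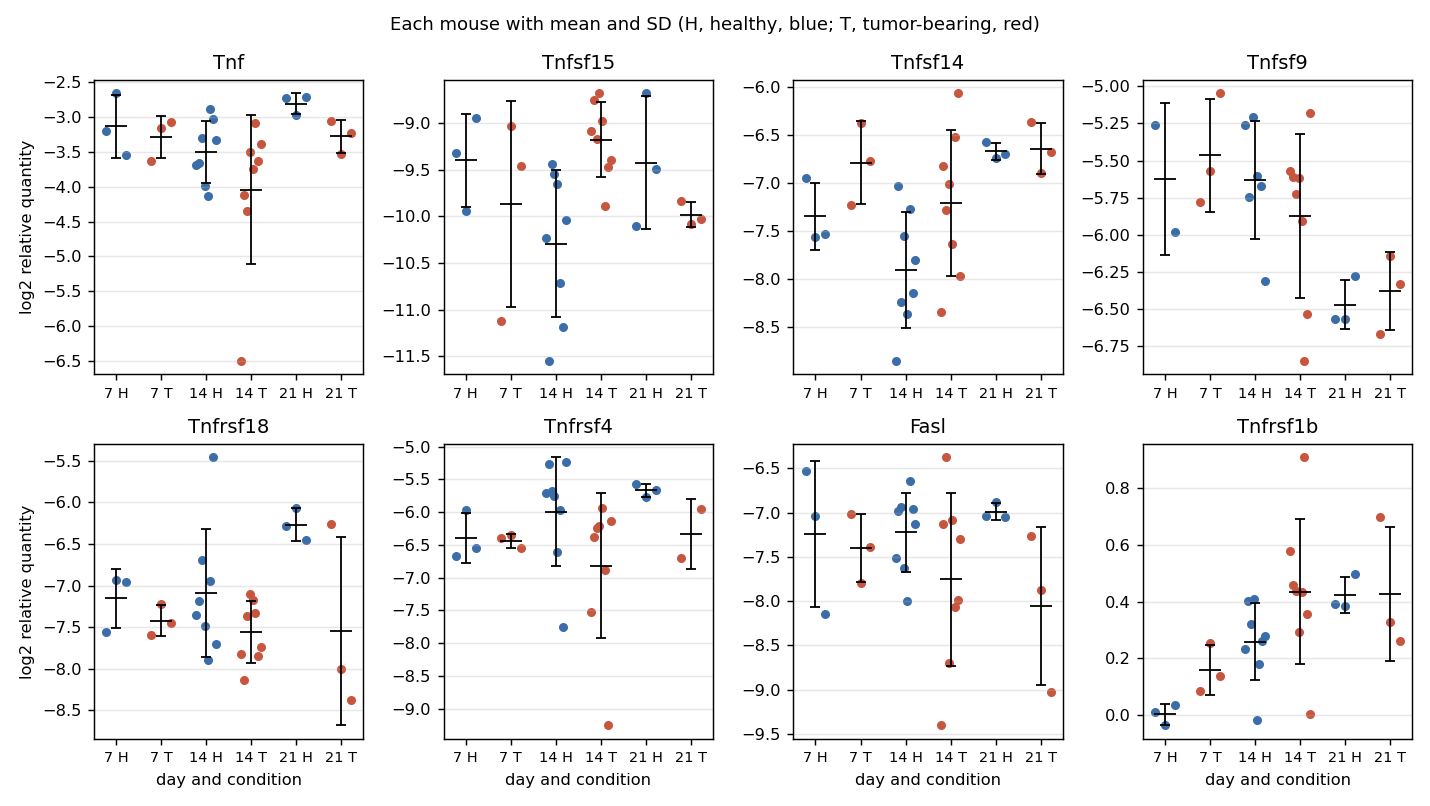
Log2 relative quantity (vertical axis) of 8 members in each mouse by day and condition, blue (H) for healthy and red (T) for tumor-bearing, with mean and SD in black. At day 21 the Tnf, Tnfrsf4 and Fasl points of the conditions do not overlap, while for Tnfrsf18 a single tumor-bearing mouse at -6.26 lies among the healthy ones.

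Tnfrsf19, Tnfsf4 and Tnfsf13b were also among the members with the smallest p on a day. Tnfrsf19, a receptor without an established ligand of this family, was -12.42 to -7.07 with a median of -10.12 in healthy mice at day 14, and -12.59 to -10.72 with a median of -11.11 in the 6 tumor-bearing mice with a Cq. Healthy mice 7, 11 and 14 were the high ones, and the ranges overlapped. The difference was -1.73 ± 0.74 (limma adjusted p 0.38). It was -2.95 with panel as a fixed block and -4.65 when missing reactions were given the highest Cq (limma adjusted p 0.309 and 0.388). At day 7 healthy mice had -11.05, -10.97 and -10.46 and tumor-bearing mice -12.50 and -10.80, and at day 21 healthy mice had -13.07, -10.85 and -10.30 and tumor-bearing mice -12.24 and -11.81. These days overlapped too.

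Tnfsf4, the ligand of Tnfrsf4, was -10.26, -9.54 and -8.02 in healthy and -8.88, -8.50 and -7.64 in tumor-bearing mice at day 7. Its difference of 0.93 ± 0.53 had a limma adjusted p of 0.997 with overlapping conditions. Leaving out 1 healthy mouse moved it to 0.45 (mouse 2) or 1.54 (mouse 1). At day 14 the estimate had the other sign, -0.55 ± 0.34, with healthy mice from -9.96 through -8.31 to -7.88 and tumor-bearing mice from -9.98 through -9.09 to -8.15. At day 21 it was 0.20 ± 0.53.

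Tnfsf13b, the B-cell survival factor BAFF, shows how narrow a well-measured member was. At day 7 it was -4.52, -4.12 and -4.02 in healthy and -4.52, -4.49 and -4.23 in tumor-bearing mice, and at day 21 it was -4.46, -4.17 and -3.91 against -4.32, -4.14 and -4.11. The medians at day 14 were -4.03 and -4.00. The conditions overlapped on every day, and the differences were -0.19 ± 0.19, -0.04 ± 0.12 and -0.01 ± 0.19.

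Non-overlap of the measured mice occurred among members at about its frequency over the panel. At day 7 the mice of the conditions did not overlap for 2 members, Tnfrsf1b and the first Tnfrsf1a assay, both higher in tumor-bearing mice, while 9.2% of all assays did not overlap. At day 14 this held for 0 members, against 0.68% of all assays. At day 21 it held for 4 members, against 18.3%: Tnf, Fasl and Tnfrsf4 were lower in the tumor-bearing mice and Tnfsf10 (TRAIL) was higher, with -4.50, -4.44 and -4.42 in healthy mice and -4.32 and -4.13 in the 2 tumor-bearing mice with a Cq. The estimate had the same sign on all 3 days for 11 of 25 members, 44.0%, against 34.7% of all assays. Tnfrsf1b and Tnfsf14 were the higher ones. Fasl, Tnf, Tnfrsf4, Tnfrsf14, Tnfrsf18, Tnfrsf19, Tnfsf8, Tnfsf13b and Tnfsf18 were the lower ones.

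The days were compared over the mean of both conditions. Day 7 was run on panels A, B and C and day 21 on panels C, E and F. Panels D and G held only samples of day 14. Differences between days therefore cannot be fully told apart from differences between panels. No member was called between any pair of days, and the smallest p-values belonged to Tnfsf9, Tnfsf14 and Tnfrsf8. From day 7 to day 14, 0 of 25 members were called, against 2.66% of 564 assays, and 6 had an unadjusted p under 0.05, against 18.6%. From day 14 to day 21, 0 of 26 were called, against 0.876% of 571, and 5 had an unadjusted p under 0.05, against 19.4%. From day 7 to day 21, 0 of 25 were called, against 2.14% of 560, and 4 had an unadjusted p under 0.05, against 16.8%. Non-overlap of the mice between days was not counted over all assays. The members described next were chosen by a small p in these comparisons, so non-overlap between days is no separate evidence for them.

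Tnfsf9, the ligand of Tnfrsf9 on antigen-presenting cells, was at its lowest at day 21. It was -5.98 and -5.26 in healthy mice at day 7, with no Cq in the other, and -5.78, -5.57 and -5.05 in tumor-bearing mice. At day 14 it ranged from -6.31 through -5.64 to -5.21 in 6 healthy mice and from -6.85 through -5.67 to -5.18 in 8 tumor-bearing mice. At day 21 it was -6.57, -6.56 and -6.28 in healthy and -6.66, -6.33 and -6.14 in tumor-bearing mice. Every day 21 mouse lay below every day 7 mouse, in both conditions, and the day 14 mice overlapped with each.

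The Tnfsf9 difference was -0.91 ± 0.26 from day 7 to day 21 and -0.66 ± 0.21 from day 14 to day 21 (limma adjusted p 0.0697 and 0.107). The latter was -0.39 without panels D and G (limma adjusted p 0.533). The former passed the threshold when only the samples of those days were fitted (-0.87, limma adjusted p 0.0457) and without tumor-bearing mouse 20 (-0.88, limma adjusted p 0.0405). Mouse 20 was of day 14, outside that comparison, and entered it only through the fit shared by all groups. The same difference missed the threshold with panel as a fixed block (-1.06), without panels D and G (-0.90) and without panel E (-0.81). The limma adjusted p was 0.149, 0.134 and 0.216 in these fits. When a missing reaction was given the highest Cq of the data, 39.7, the difference turned to 2.50.

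Tnfsf14, with values given above, was 0.90 ± 0.28 higher at day 21 than at day 14 (limma adjusted p 0.0845). In healthy mice alone the difference was 1.24 ± 0.39 (limma adjusted p 0.1), and every healthy mouse of day 21 lay above every healthy mouse of day 14. Without tumor-bearing mouse 21 the difference over both conditions was 0.997 (limma adjusted p 0.048). It was 0.86 with panel as a fixed block, 0.82 without panels D and G and 0.88 without panel E. The limma adjusted p of these fits was 0.304, 0.273 and 0.179.

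Tnfrsf1b was the most precise of the members. At day 7 it was -0.04, 0.01 and 0.04 in healthy mice and 0.09, 0.14 and 0.26 in tumor-bearing mice. At day 14 it ranged from -0.02 through 0.27 to 0.41 in healthy and from 0.01 through 0.44 to 0.91 in tumor-bearing mice. The day 21 values were 0.38, 0.39 and 0.50 in healthy and 0.26, 0.33 and 0.70 in tumor-bearing mice. The mice of days 7 and 21 did not overlap in healthy mice, nor in tumor-bearing mice, whose highest at day 7 (0.256) and lowest at day 21 (0.260) lay side by side.

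The Tnfrsf1b differences were small, 0.26 ± 0.10 from day 7 to day 14 and 0.35 ± 0.12 from day 7 to day 21 (limma adjusted p 0.16 and 0.144), or 1.2-fold and 1.28-fold. Tnfsf13 (APRIL) was 0.47 ± 0.16 higher at day 21 than at day 7 (limma adjusted p 0.173). It was -2.44, -2.41 and -2.19 in healthy mice and -2.29 and -2.05 in tumor-bearing mice at day 7, and -1.88, -1.76 and -1.73 against -2.12, -1.81 and -1.32 at day 21. Its day 14 medians were -2.03 and -1.99. Healthy mouse 14 was of day 14, outside this comparison, and entered it only through the fit shared by all groups. Without that mouse the Tnfsf13 difference was 0.48 (limma adjusted p 0.0489). It was 0.25 with panel as a fixed block (limma adjusted p 0.602) and 4.71 when missing reactions were given the highest Cq (limma adjusted p 0.703). The Tnfsf13 assay and its neighbour Tnfsf12 each match a second RefSeq gene, the readthrough Tnfsfm13, so their signal may include it.

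Tnfsf11 (RANKL) was 0.55 ± 0.23 higher at day 14 than at day 7 (limma adjusted p 0.208). The difference was 0.29 with panel as a fixed block, 0.26 without panels D and G, and -0.55 when its missing reaction was given the highest Cq (limma adjusted p 0.935, 0.681 and 0.958). It was -4.26, -4.25 and -3.35 in healthy and -4.54, -4.37 and -3.51 in tumor-bearing mice at day 7. At day 14 it ranged from -4.14 through -3.87 to -2.96 in 7 healthy mice and from -3.88 through -3.54 to -2.89 in 8 tumor-bearing mice. The day 21 values were -4.05, -3.75 and -3.41 in healthy and -4.73, -4.34 and -3.66 in tumor-bearing mice. The days overlapped, and its decoy receptor Tnfrsf11b lay between -5.05 and -3.21 in the 27 mice with a Cq.

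Tnfrsf8 (CD30) differed by -2.64 ± 0.81 from day 7 to day 14 (limma adjusted p 0.0987), at the edge of detection. It was -17.62, -16.34 and -15.18 in healthy and -16.37, -16.36 and -14.63 in tumor-bearing mice at day 7. At day 14 it ranged from -21.26 through -18.46 to -16.26 in 5 healthy mice and from -21.24 through -19.34 to -16.48 in 8 tumor-bearing mice, and the days overlapped. By day 21 Tnfrsf8 was -19.45 and -17.41 in 2 healthy mice and -19.84, -19.48 and -16.48 in tumor-bearing mice. Cd40lg differed by 3.55 ± 1.56 from day 14 to day 21, an estimate that includes the reaction of mouse 26. With that reaction removed it was 0.86 (limma adjusted p 0.389). Its other values were -11.07, -10.74 and -10.35 in healthy mice and -11.61 in 1 tumor-bearing mouse at day 7. At day 14 they ran from -14.14 through -10.99 to -9.40 in 6 healthy mice and from -13.28 through -12.47 to -10.96 in 7 tumor-bearing mice.

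The changes with time within each condition gave no call either. In healthy mice 0 of 26 members were called from day 7 to day 14 (0.0% of all assays), from day 14 to day 21 (0.346%) and from day 7 to day 21 (0.0%), with 2, 3 and 3 members at an unadjusted p under 0.05, against 12.9%, 16.1% and 10.0%. In tumor-bearing mice 0 of 25 were called from day 7 to day 14 (0.175%), 0 of 26 from day 14 to day 21 (0.0%) and 0 of 25 from day 7 to day 21 (0.529%), with 2, 4 and 2 members at an unadjusted p under 0.05, against 8.58%, 10.3% and 8.82% of all assays. The difference of the tumor effect between days was called for 0 of 25, 0 of 26 and 0 of 25 members, and for 0.0% of all assays each time. Unadjusted p under 0.05 occurred for 2 members between days 7 and 14 (Tnfsf15 and Tnfsf4), 1 between days 14 and 21 (Tnfsf15) and 0 between days 7 and 21, against 3.72%, 5.43% and 3.93% of all assays.

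The 2 Tnfrsf1a assays gave a check within 1 gene. In 27 of 28 mice the first assay lay below the second by 0.07 to 0.84 on the log2 scale, with a median difference of -0.53 over all mice. In healthy mouse 14 of day 14 it lay 2.66 above, at 1.82 against -0.85. That mouse was also the highest for Tnfrsf14, at -0.65 while the others of its group lay at or below -1.85.

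**Figure D5:**
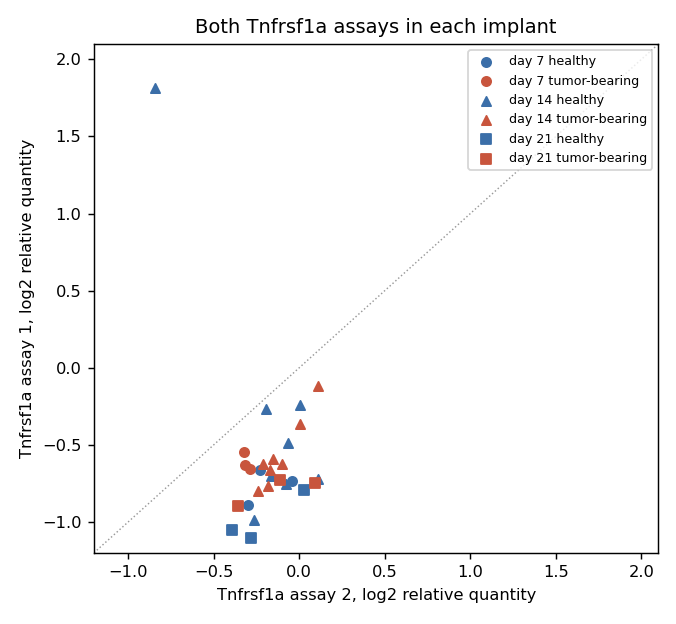
Log2 relative quantity of the first Tnfrsf1a assay (vertical axis) against the second (horizontal axis), 1 point per implant, coloured by condition and shaped by day, with the line of equality dotted. All points but healthy mouse 14 of day 14 (1.82 against -0.85) lie below the line.

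Members of the family outside the naming rule and the genes around the pathway gave few calls. The 5 further family genes with an assay were Cd70, Eda2r, Fas, Ltb and Ltbr, and 0 of the 4 or 5 tested were called in any tumor or day comparison. Over the mean of the days Eda2r differed by -0.18 ± 0.14 and Ltb by -0.16 ± 0.23 between conditions. Cd70, a T-cell costimulatory ligand, had a Cq in only 12 mice.

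Of 10 assays for receptor adaptors and NF-kappaB signalling, 0 were called between conditions on any day. Jun, a subunit of the transcription factor AP-1, was the 1 that rose from day 7 to day 14, by 0.45 ± 0.12 (limma adjusted p 0.0429). Of 28 assays for genes known to be induced by TNF, 0 were called between conditions at days 7, 14 and 21, and 1 fell over the mean of the days. This was the second assay of Ccl5, a chemokine that draws T cells and monocytes, at -0.71 ± 0.16 (limma adjusted p 0.0141). It was 1 of 27 assays tested there, against 2.5% called over all assays, and the first assay of Ccl5 was not called. The median difference of the 28 assays at day 21 was -0.46, against 0.00 over all assays.

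With time, Nos2, the inducible nitric oxide synthase, fell by 1.26 on the log2 scale from day 7 to day 14 and by 1.76 from day 7 to day 21 (limma adjusted p 0.0429 and 0.0278). The first assay of Csf2, the growth factor GM-CSF, rose by 1.39 from day 14 to day 21 and by 1.74 from day 7 to day 21 (limma adjusted p 0.0319 and 0.0195). Each of these day comparisons called 1 or 2 of the 27 or 28 tested assays of this list. No other assay of Csf2 was called in them. Over all assays 2.66%, 0.876% and 2.14% were called from day 7 to 14, day 14 to 21 and day 7 to 21. Tnf itself was 0.69 ± 0.32 higher at day 21 than at day 14 (limma adjusted p 0.224).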

How the data were processed

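Expression was measured by quantitative PCR on the TaqMan OpenArray Mouse Inflammation Panel (QuantStudio 12K Flex), per the labels' protocols, on 7 physical panels called A to G. Per the file headers, the authors deposited raw Cq, normalized values on a linear ratio scale and fold changes by day. The deposited ratio was recovered here as 2 to the power of the mean Cq of 5 reference genes, which are not reported here, minus the assay's Cq (largest deviation 2.96e-05 cycles). Reactions without a Cq were left missing. The software that called Cq is not given in the sources used here.

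Log2 of the ratios was fitted with limma 3.58.1 (lmFit, eBayes; R 4.3.3) over all assays and 6 group means, with panel as a random block (correlation 0.0535). Assays needed a value in at least 50% of 1 group and 2 values in each group compared. P-values were Benjamini-Hochberg adjusted within each of 16 contrasts, and the fit was tested on simulated data. Errors are standard errors, and the spread is between single mice. Values by sample are given for the 3 members with the smallest p in each tumor and averaged day contrast, for Tnf, and for members with a reaction over 4 cycles from its group median. Tnfrsf4 was added to these after its values were seen. Alternatives changed the block, filter, scaling, treatment of missing or outlying reactions, prior and samples. The members and lists were chosen with earlier results of these data known. Primer and probe sequences were not used here. Python 3.11.15 made the tables.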

Additional observations from a re-analysis of the deposited data

Results flagged for a closer look

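Single mice stood far from the rest of their group in 5 of the 52 member groups of 4 to 10 mice examined with Dixon's test, which chance would give in about 1 in 20. Tnf was -6.50 and Tnfsf12 -2.24 (log2 relative quantity) in tumor-bearing mouse 15 of day 14, both the lowest of the group. Healthy mouse 14 of day 14 was the highest for Tnfrsf14, at -0.65, and for the first Tnfrsf1a assay, at 1.82, and the lowest for the second Tnfrsf1a assay, at -0.85.

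The second Tnfrsf1a assay was lower in the tumor-bearing mouse in 3 of 3 panel-matched pairs at day 7 and higher in 3 of 3 at day 21, a difference between the mean pair differences of 0.21 on the log2 scale. This difference was not tested apart from the model, in which the tumor effect did not differ between days past the threshold. The first assay of the same gene was higher in 3 of 3 pairs on both days.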

How the results depend on the processing

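Counts were refitted under 39 alternatives, of which 28 left out 1 mouse, except for the mean of the 3 days, where 38 gave a value. The alternative without panel E was chosen after seeing the data. Of 623 refitted counts of called members, 612 stayed at 0. Without panel E, 1 member (Tnfrsf18) was called at day 21 and 1 over the mean of the days. With only the samples of the days compared, 1 (Tnfsf9) was called from day 7 to day 21. Leaving out 1 mouse, the count ranged from 0 to 1 at day 14 (Tnfsf15, at 1.10 without tumor-bearing mouse 4 and 1.21 without healthy mouse 9, adjusted p 0.0415 and 0.0493, in limma), at day 21 and over the mean of the days (Tnfrsf18, without mouse 26), from day 14 to day 21 and from day 7 to day 21 over both conditions. The count ranged from 0 to 2 from day 14 to day 21 in tumor-bearing mice (Cd40lg and Tnfrsf9, without mouse 27). Both of those estimates include the early reactions of mouse 26. Tumor-bearing mouse 4 was of day 7, outside the day 14 comparison of Tnfsf15, and entered it only through the fit shared by all groups. Of 998 refits of single members 978 kept direction and side of the threshold. Signs turned for Tnfrsf9 at day 21 (-0.13 without reactions over 4 cycles out, -0.15 without panel E, -0.13 without mouse 26) and Cd40lg at day 21 (-0.63, -0.60 and -0.63). With the highest Cq put in for missing reactions they turned for Tnfsf11 from day 7 to day 14 (-0.55) and Tnfsf9 from day 14 to 21 (2.01) and day 7 to 21 (2.50). Leaving out 1 mouse, Tnf at day 7 ranged from -0.35 to 0.060, Tnfrsf9 at day 21 from -0.13 to 3.40 and Cd40lg at day 21 from -0.63 to 7.53.

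Calls over all assays ranged from 3 to 15 at day 14, 0 to 9 at day 21 and 4 to 15 over the mean of the days, against 14, 7 and 14. The cause of these shifts was not tested. No paired analysis was possible by replicate number, because no number occurs in more than 1 group. Mice share panels instead, and with panel as a fixed block 0 members were called in each of the 16 contrasts. Groups of 3 mice and late Cq values limit what could be detected. Median SEs of member differences for days 7, 14 and 21 were 0.45, 0.30 and 0.49.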
